A study of Mus musculus with 7 samples.

Results

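Among bone marrow LSK cells (lineage-negative cells sorted for Sca-1 and cKit), quiescent stem-cell-gated cells were those with RNA of at least 4 of 10 stem cell genes and little or no detected RNA of 5 progenitor and proliferation genes. The 10 genes were Procr, Hlf, Mecom, Mllt3, Fgd5, Hoxb5, Slamf1, Ctnnal1, Pdzk1ip1 and Trpc6, each counted from 1 UMI (a unique molecular identifier, which marks a captured RNA molecule). The cells also had 0 UMIs of Flt3 and Dntt, at most 1 of Elane, and 0 of Mki67 and Top2a. The rule found 2124 of 24430 kept cells, or 8.69%. The cells were thus chosen by the measured counts of the 10 stem markers and the 5 other genes of the rule, so their levels in these cells are given as a description.

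Long-term hematopoietic stem cells sit at the top of the blood lineage and are mostly out of the cell cycle. They give rise to multipotent progenitors, which gain Flt3, Cd34 and Cd48 and divide often. Stem cells are rich in Procr, the endothelial protein C receptor, and in the transcription factors Hlf, Mecom and Hoxb5. A share of them is biased towards platelets and carries RNA of megakaryocyte genes such as Vwf.

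Mice of 2 genotypes were compared, labelled 129S1/C57Bl/6 and 129S1/C57Bl/6, B4-/-, the latter without B4galt1, and no treatment was named. B4galt1 encodes a beta-1,4-galactosyltransferase that transfers galactose onto glycans, and the series title links glycosylation, Wnt and the mucin Muc13 to the megakaryocytic fate of stem cells. The knockout label was on 3 libraries and the WT label on 4. Age, sex and how many mice went into a library are not given in the sources used here, so p-values measure the spread between libraries, which may be technical.

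The libraries held 14970791 to 89747946 UMIs and 1172 to 8862 kept cells. Their barcodes came from 2 lists. List B held the barcodes of knockout replicate 3 and of WT replicate 4, and list A those of the other 5 libraries. The labels name 1 kit for all 7 libraries. In gated cells the first principal component, with 70.2% of the variance, parted list B (69.7 and 76.2) from list A (-49.2 to -10.0). Of the barcode sequences, 88 occurred in both list B libraries and at most 7 in any other pair, and none of the gated cells shared its barcode. Differences between labels are therefore given with the list as a covariate and within list A. Within list B there is 1 library per label and no replicate.

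The gated cells numbered 153, 128 and 709 in knockout replicates 1 to 3 and 93, 123, 77 and 841 in WT replicates 1 to 4. List B held 1550 of them, or 73.0%. The sum over the gated cells of a library ranged from 508439 to 5305083 UMIs. The median gated cell of a library held 4045.5 to 7145 UMIs, and its mitochondrial share was 2.31% to 5.32%. Ribosomal protein genes took 8.17% to 20.2% of the UMIs of a median gated cell in list A, and 33.1% and 34.8% in list B.

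Mecom, Hlf, Mllt3 and Trpc6 were the markers found most often in gated cells, and 1014 cells (47.7%) held all 4. In the median library, 98.7% of gated cells held a UMI of Mecom, 93.5% of Hlf, 89.4% of Mllt3 and 80.5% of Trpc6. Pdzk1ip1 was found in 41.8%, Procr in 34.4%, Fgd5 in 28.9%, Slamf1 in 12%, Ctnnal1 in 9.68% and Hoxb5 in 5.88%. Mecom, Hlf and Mllt3 were also widespread outside the gate: among Flt3 progenitors, defined below, the median share was 83.6% for Mecom, 70.6% for Hlf and 50% for Mllt3, at a median of 6653 UMIs per cell against 6009 in the gate. The other genes were scarce there, with 10.5% for Trpc6, 5.91% for Procr, 4.25% for Fgd5, 3.36% for Pdzk1ip1, 1.49% for Ctnnal1, 1.25% for Slamf1 and 0.671% for Hoxb5. These progenitors were limited to fewer than 4 of the 10 markers, so low shares there are partly built into their definition. Of all gated cells, 219 (10.3%) held Mecom, Hlf, Mllt3 and Trpc6 and no other marker, 1905 (89.7%) held at least 1 of the other 6, and 1045 (49.2%) held 2 or more of those. Cells with these 4 markers and no other made up 13.7% to 33.3% of the gate in list A but 4.65% and 6.30% in list B.

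The number of markers per gated cell ranged from 4 to 9. There were 853 cells with 4 markers, 712 with 5 and 559 with 6 or more. Another 730 cells lay just outside, with 3 markers and every other condition met. By library, the median depth was 3201 to 7200 UMIs for cells with 4 markers, 5427 to 6982 for those with 6 or more and 3935 to 7335.5 for those with 3. In each library of list A, cells with 6 or more markers were deeper than those with 4, most in WT replicate 2 (6820 against 3201). In list B they were not (6982 against 7200 in knockout replicate 3, 6033 against 6095 in WT replicate 4).

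For comparison, Flt3 progenitors were cells with at least 1 UMI of Flt3, no Dntt, at most 1 UMI of Elane, no Mki67 or Top2a and fewer than 4 stem markers (2924 cells). Cycling stem-marker cells met every condition of the gate but had RNA of Mki67 or Top2a (1033 cells). Levels between these groups are CPM, UMI counts scaled to the library total with TMM factors over all groups together, and differences are medians over the 7 libraries of log2(CPM + 1). They carry no test, because transcripts of the same cells placed them in their groups. Of 7351 genes averaging 20 CPM or more, 8.18% were higher in gated cells than in Flt3 progenitors in all 7 libraries and 11.3% were lower in all 7.

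Genes of stem cells that the rule did not use were mostly higher in the gate. Of 32 such genes, 19 passed the level limit, and 16 of these were higher than in Flt3 progenitors in all 7 libraries, with a median difference of 0.59. Against cycling stem-marker cells, 12 of the 19 were higher in all 7, with a median difference of 0.57. The genes named next were drawn from all 32, and Vwf averaged under the level limit. Vwf, von Willebrand factor, stood at 11 to 33.1 CPM (median 23.1) in gated cells and at 0 to 3.71 (median 3.41) in Flt3 progenitors. Tgm2, a transglutaminase, ranged from 23.8 to 54.9 CPM against 2.04 to 6.07. For both genes the ranges of the groups did not overlap. Esam, an endothelial adhesion molecule that marks stem cells, had a difference of 1.58, and Tek, the angiopoietin receptor, of 1.80. The cell cycle inhibitor Cdkn1c (p57) had a difference of 2.28. Hoxa9 was higher in only 3 of the 7 libraries, with a difference of -0.17.

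The sort markers were present. Kit, the receptor for stem cell factor, ranged from 207 to 529 CPM in gated cells, and Ly6a, which encodes Sca-1, from 29.9 to 129.

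Among genes that the rule did not use, the 10 largest differences in favour of the gate were those of Ncam2 (4.72), Mmp16 (4.04), Gda (3.16), Magi2 (2.83), Tgm2 (2.74), Plcb1 (2.62), Cpne8 (2.60), Nbea (2.59), Mmrn1 (2.55) and Plxdc2 (2.54). Ncam2 encodes a cell adhesion molecule, Mmp16 a membrane-bound matrix metalloproteinase, Gda guanine deaminase and Mmrn1 the platelet protein multimerin. Ncam2 stood at 55.4 to 332 CPM in gated cells and at 0 to 10.4 in Flt3 progenitors. All but Plcb1 and Mmrn1 of these 10 were also higher than in cycling stem-marker cells in all 7 libraries.

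Genes of progenitors and mature lineages made up the other end. Ighm, the immunoglobulin heavy chain that is transcribed early in the lymphoid branch, had a difference of -4.12. It was followed by Ctsg (-3.21), Ccl3 (-3.13), Ccr2 (-3.07), Atp8b4 (-3.03), Rab44 (-2.88), Wfdc17 (-2.83), BC035044 (-2.69), Irf8 (-2.56) and Ccl9 (-2.45). Ctsg is a granule protease of neutrophil precursors, Irf8 a transcription factor of monocytes and dendritic cells, and Ccr2 a chemokine receptor of monocytes. Of 12 multipotent progenitor genes, 11 were lower in the gate in all 7 libraries, with a median difference of -1.66. Among them were Cd34 (-0.92), Cd48 (-2.02), Plac8 (-1.78) and the G1 kinase Cdk6 (-1.13).

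**Figure D1:**
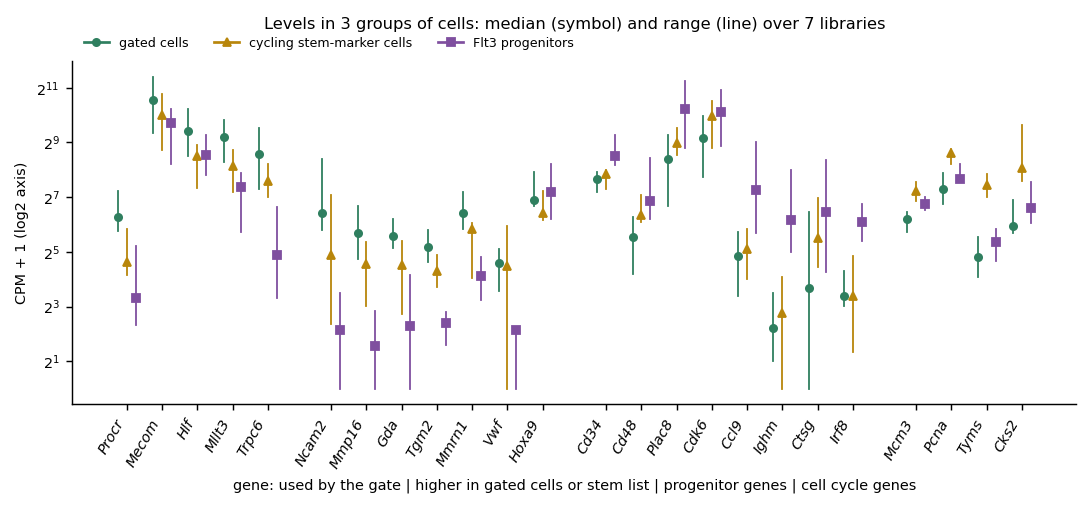
Levels of genes (CPM + 1, log2 axis) in gated cells, cycling stem-marker cells and Flt3 progenitors; symbols are medians and lines the range over the 7 libraries. Ncam2, Mmp16, Tgm2 and Vwf lie higher in the gate than in Flt3 progenitors, Cd34, Cd48, Plac8 and Ighm lie lower, and Tyms and Cks2 are high in the cycling cells alone.

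Cell cycle genes other than Mki67 and Top2a were lower in the gate than in cycling stem-marker cells. Mki67 and Top2a themselves parted these cells, so such an order is partly built into the rule. The cycling cells were also deeper in each library, with 9007 UMIs per cell in the median library against 6009 in the gate. The part of depth in this split was not tested. The summed level of 22 G2/M genes had a median of 184.2 CPM in gated cells, 262.9 in Flt3 progenitors and 2058 in cycling stem-marker cells. For 20 S phase genes the sums were 1042, 1542 and 2427 CPM in the same order. Of 15 S phase genes over the level limit, 14 were lower than in the cycling cells in all 7 libraries (median difference -1.18; 13.6% of all 7351 genes were lower in all 7), and 9 were lower than in Flt3 progenitors in all 7. Pcna, the replication clamp, had a median of 157 CPM in the gate and 393 in the cycling cells, and Tyms, thymidylate synthase, 27.2 against 172. Immediate early genes went the other way between these 2 groups, with 10 of 19 higher in the gate in all 7 libraries (12.3% of all genes were) and a median difference of 0.54.

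From cells with 3 markers to those with 6 or more, some stem cell genes outside the rule and several progenitor genes were ordered by the number of markers. That number counts the rule's own 10 markers, so these orders are given as a description with no test. The median CPM of Vwf was 5.35 in cells with 3 markers, 8.05 with 4, 22.8 with 5 and 41.9 with 6 or more. Esam stood at 26.8, 33.9, 39.9 and 75.8 in the same order. In all, 10 of the 32 stem cell genes were higher at each step and none was lower at each step. Among the others were Sult1a1, Neo1, Clec1a, Socs2, Ifitm3, Tgm2 and Mycn.

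Several progenitor genes had the opposite order. Cd48, a Slam family surface protein used to sort stem cells out of LSK cells, stood at 90.4, 65.6, 40.9 and 16.3 CPM in cells with 3, 4, 5 and 6 or more markers. Cdk6 stood at 944, 718, 512 and 389.9, and Cd34 at 328.6, 218, 196 and 129. Of the 12 progenitor genes, 7 were lower at each step (Satb1, Ccl9 and Plac8 among them) and none was higher at each step. These cells share their libraries, and cells with 3 markers lie outside the gate. In list A, cells with 6 or more markers were also deeper than those with 4, and the part of depth in these orders was not tested.

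**Figure D2:**
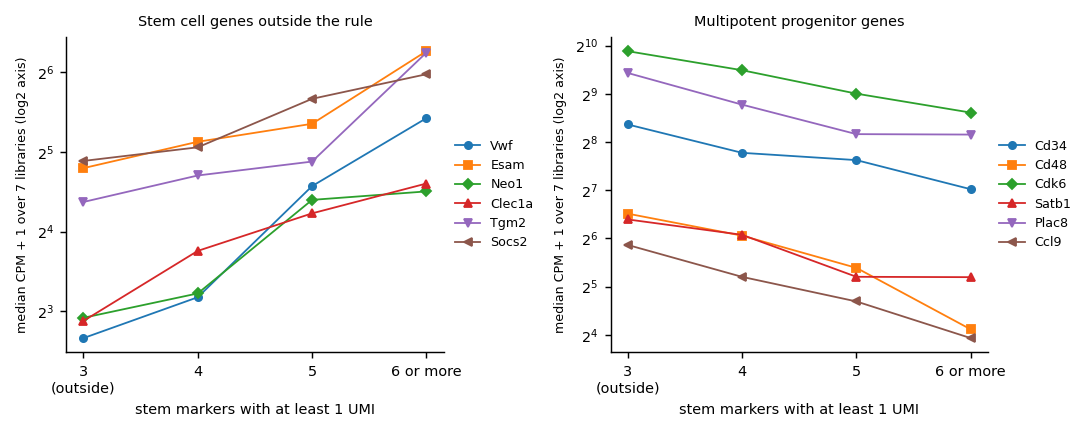
Median CPM + 1 over the 7 libraries (log2 axis) by the number of stem markers with a UMI, for 6 stem cell genes outside the rule and 6 multipotent progenitor genes. Vwf goes from 5.35 CPM at 3 markers to 41.9 at 6 or more, while Cd48 goes from 90.4 to 16.3.

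The share of kept cells inside the gate did not separate the labels at full depth. It was 4.98% (95% Wilson interval 4.27 to 5.81), 7.42% (6.28 to 8.75) and 10.3% (9.64 to 11.1) in knockout replicates 1 to 3. It was 7.48% (6.14 to 9.07), 10.5% (8.87 to 12.4), 5.13% (4.13 to 6.37) and 9.49% (8.90 to 10.1) in WT replicates 1 to 4. The groups overlapped. The means were 7.58% ± 2.68 (SD, n = 3) and 8.15% ± 2.37 (SD, n = 4), a difference of -0.57 percentage points (two-sided exact permutation p 0.686). The smallest p that this test can give here is 0.0571. The difference was -1.50 within list A and 0.85 within list B.

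For 2 conditions of the rule the values of the labels lay apart in opposite directions. Both were chosen after their values had been seen and use the genes of the rule, so they are given as a description with no test. Cells with at least 4 stem markers made up 25.1%, 25.5% and 37.6% of kept cells in the knockout-labelled libraries and 42.8%, 53.1%, 48.1% and 39.1% in the WT-labelled ones. Every knockout-labelled library lay below every WT-labelled one, with means of 29.4% ± 7.12 (SD, n = 3) and 45.8% ± 6.11 (SD, n = 4), a difference of -16.4 points. It was -22.7 points within list A and -1.51 within list B. With at least 3 markers the groups overlapped, with 58.8% in knockout replicate 3 and 58.5% in WT replicate 4.

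Of the cells with at least 4 markers, 36.8%, 47.3% and 42.0% had no UMI of Flt3 and Dntt in the knockout-labelled libraries, against 31.0%, 29.7%, 21.5% and 32.7% in the WT-labelled ones. Here every knockout-labelled library lay above every WT-labelled one. The means were 42.0% ± 5.26 (SD, n = 3) and 28.7% ± 4.99 (SD, n = 4), a difference of 13.3 points, with 14.6 within list A and 9.34 within list B. The Elane condition then removed 31, 5 and 10 cells in the knockout-labelled libraries and 0, 0, 0 and 11 in the WT-labelled ones.

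With every cell thinned to 3000 UMIs, and shallower cells left out (1074 to 8693 cells a library remained), the gated share no longer overlapped. It was 3.94%, 6.40% and 5.70% in the knockout-labelled libraries and 7.25%, 9.03%, 8.18% and 6.82% in the WT-labelled ones. The means of 5.34% ± 1.27 (SD, n = 3) and 7.82% ± 0.986 (SD, n = 4) differed by -2.48 points (two-sided exact permutation p 0.0571, the smallest possible), with -2.99 within list A and -1.12 within list B. That p does not pass 0.05. The gated shares at either depth rest on counts of the rule's own 15 genes, so they describe how often these genes were detected. Both conditions kept their direction and still did not overlap after thinning: -8.33 points for cells with at least 4 markers and 11.4 points for those of them without Flt3 and Dntt. In the first, knockout replicate 2 (11.77%) and WT replicate 4 (11.84%) were close together. Thinning hides UMIs of Flt3, Dntt, Mki67 and Top2a as well as of stem markers, and WT replicate 3 had 119 gated cells at 3000 UMIs and 77 at full depth.

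**Figure D3:**
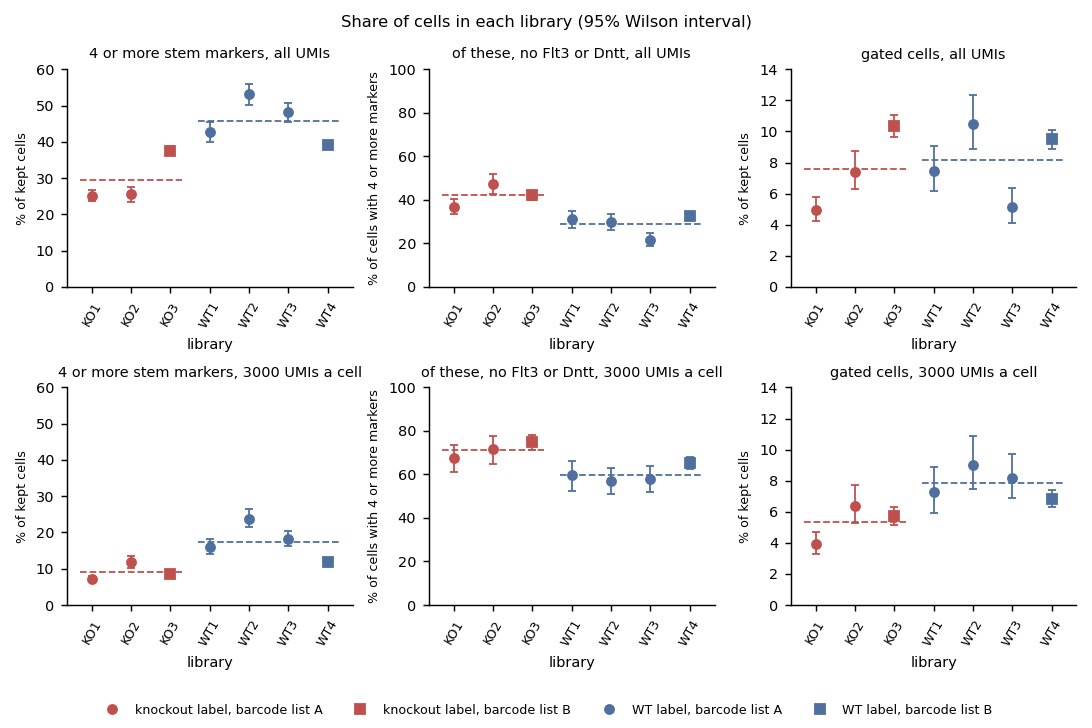
Shares of cells in each library (KO1 to KO3 and WT1 to WT4 are the knockout and WT replicates) with 95% Wilson intervals, which cover counting error only; dashed lines are group means, circles list A and squares list B. Cells with 4 or more stem markers are fewer (25.1% to 37.6% against 39.1% to 53.1%) and those without Flt3 or Dntt among them more frequent in the knockout-labelled libraries, while the gated share overlaps at full depth.

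Among stem-marker cells, the share without Mki67 and Top2a was 60.7%, 63.1% and 66.0% in the knockout-labelled libraries and 56.4%, 66.5%, 49.7% and 74.9% in the WT-labelled ones. The groups overlapped, and the means of 63.3% ± 2.66 (SD, n = 3) and 61.9% ± 11.1 (SD, n = 4) had a two-sided exact permutation p of 0.914. Within list A the difference was 4.38 points and within list B -8.87. At 3000 UMIs it was 5.02 points (two-sided exact permutation p 0.457). The shares there were 81.7%, 75.8% and 88.6% under the knockout label and 75.9%, 66.4%, 77.3% and 88.4% under the WT label. This share is set by the rule's last condition, so it describes how often Mki67 and Top2a were detected.

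Next, transcript levels inside the gate were compared between the labels on UMI counts summed per library (edgeR quasi-likelihood test with the barcode list as covariate, Benjamini-Hochberg adjustment, threshold 0.05). The levels below are TMM CPM of gated cells alone. Of 8838 genes tested, edgeR called 2, or 0.0226%: Vldlr was higher (0.0113% of genes were called higher) and Ccl27a lower (0.0113%) in the knockout-labelled libraries. At an unadjusted p below 0.05 there were 304 genes (3.44%), 150 higher and 154 lower. Without the covariate edgeR called 0 of 8248 genes, with 43 at an unadjusted p below 0.05, and DESeq2 without a covariate called 0 as well, against 2 with it.

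Vldlr encodes the very-low-density lipoprotein receptor, which takes up lipoproteins and also binds reelin. It stood at 135, 74.9 and 16.2 CPM in knockout replicates 1 to 3 and at 22, 26.7, 15.3 and 6.91 in WT replicates 1 to 4, from 133, 44 and 71 UMIs and 12, 17, 8 and 29. Knockout replicates 1 and 2 were far above all WT-labelled libraries of list A, while knockout replicate 3 lay inside the WT range and above WT replicate 4, its partner in list B. The means were 75.3 ± 59.2 (SD, n = 3) and 17.7 ± 8.60 (SD, n = 4). The fitted difference (log2, knockout minus WT label) was 1.94 (SE 0.28, edgeR adjusted p 0.00815), within list A 2.30 (edgeR adjusted p 0.00483) and 1.12 as a log2 ratio within list B. The edgeR adjusted p was 0.0950 with knockout replicate 1 left out, 0.0669 with WT replicate 1 left out, 1.00 with no covariate, 0.133 with the replicate number as a block in place of the covariate and 0.145 with at least 5 markers, so the call was lost in each of these. On plain CPM the two-sided exact permutation p was 0.171.

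Outside the gate the Vldlr difference was not called: it was 1.11 in cycling stem-marker cells (edgeR adjusted p 0.309) and 0.75 in Flt3 progenitors (0.606). The gate exceeded Flt3 progenitors by 1.12 in that difference (SE 0.27), which did not pass the test (edgeR adjusted p 0.0972).

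Ccl27a encodes a chemokine best known from skin. It stood at 2.03, 0 and 6.86 CPM in the knockout-labelled libraries and at 12.9, 6.28, 17.2 and 45.8 in the WT-labelled ones, from 2, 0 and 30 UMIs and 7, 4, 9 and 192. Knockout replicate 3 was just above WT replicate 2, so the groups overlapped, while within each barcode list all knockout-labelled libraries were lower. The fitted log2 difference came to -2.80 (SE 0.42, edgeR adjusted p 0.00815), a value that depends on the fit's prior count because 1 library is at 0. The call was lost without knockout replicate 3 (edgeR adjusted p 0.395), without WT replicate 4 (0.959) and with the replicate number as a block in place of the covariate (0.316). It was also absent within list A alone, with no covariate, with at least 5 markers and at a mitochondrial limit of 5%. Fits without cells over 2 times the median UMIs, with equal numbers of cells or after thinning to 3000 UMIs did not call it either. In some of these settings Ccl27a gave no fitted value. Ccl27a was also lower in Flt3 progenitors (fitted -3.47, edgeR adjusted p 0.00138) and in cycling stem-marker cells (-4.02, 0.000458). The gate minus progenitor difference was 0.52 (SE 0.50) and the gate minus cycling difference 1.18 (SE 0.59), neither of them called (edgeR adjusted p 1.00).

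Ccl27a lies on chromosome 4 (41769467 to 41774247, minus strand), 915.5 kb from B4galt1. Its end overlaps that of Il11ra1, an interleukin 11 receptor gene on the other strand. Il11ra1 stood at 21.3, 15.3 and 62.7 CPM against 51.4, 36.1, 45.8 and 99.8 and was not called (log2 difference -0.94, SE 0.24, edgeR adjusted p 0.542). The files hold further entries of Ccl27a, of Ccl27b and of Il11ra2, all at 0 UMIs in gated cells, so how reads were divided among near-identical copies is uncertain.

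B4galt1 RNA did not separate the labels in the gate. B4galt1 (chromosome 4, 40804602 to 40854005, minus strand) stood at 49.6, 49.4 and 30.9 CPM in the knockout-labelled libraries and 53.3, 73.7, 49.6 and 38.6 in the WT-labelled ones. The fitted log2 difference came to -0.28 (SE 0.21, edgeR adjusted p 1.00; two-sided exact permutation p 0.343). Which exons were deleted is not given in the sources used here, and tags from outside the deletion would not test a label, so the libraries are named by their labels.

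Muc13, a transmembrane mucin named in the series title, stood at 171, 196 and 299 CPM in the knockout-labelled libraries and at 143, 163, 109 and 163 in the WT-labelled ones. Every knockout-labelled library was above every WT-labelled one, as in 0.781% of all genes tested. The means were 222 ± 68.0 (SD, n = 3) and 145 ± 25.7 (SD, n = 4). The log2 fold change of 0.56 (SE 0.21) was not called (edgeR adjusted p 1.00), and the two-sided exact permutation p was 0.0571. It was 0.40 within list A and 0.87 within list B. In Flt3 progenitors the Muc13 difference was 0.66 (edgeR adjusted p 0.30) and in cycling stem-marker cells 0.15 (1.00).

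**Figure D4:**
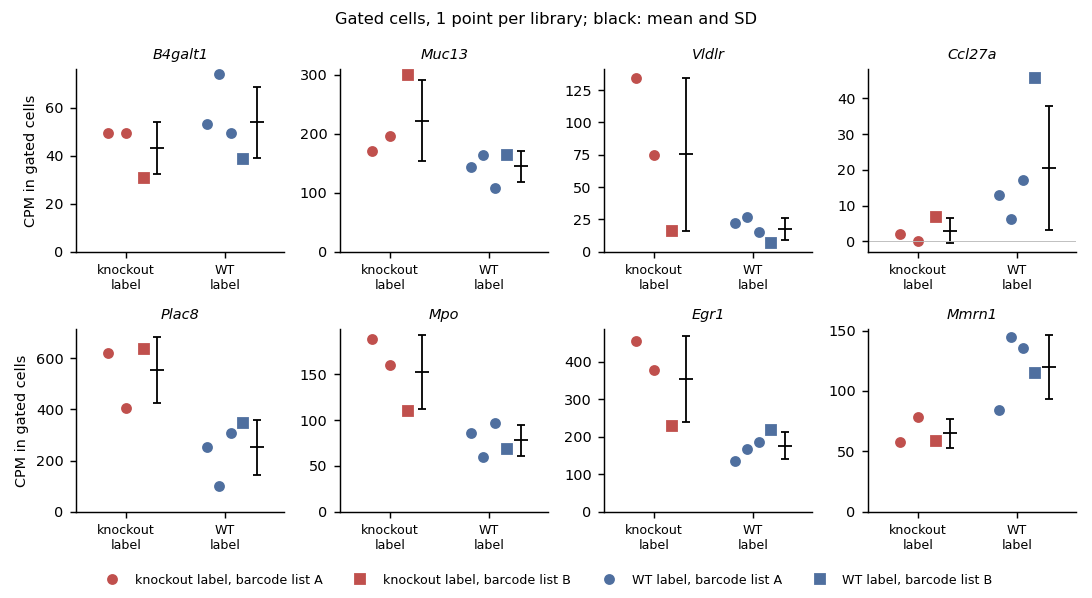
CPM in gated cells of each library for 8 genes; circles are list A, squares list B, and black marks the mean and SD of a group. Vldlr is high in knockout replicates 1 and 2 only, and Ccl27a is below 7 CPM in the knockout-labelled libraries. Muc13, Plac8, Mpo and Egr1 (higher) and Mmrn1 (lower) do not overlap between the labels, though none of these 5 was called. Of all genes tested, 0.781% were higher and 0.577% lower without overlap.

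The start regions of Vldlr, the gene called higher, and of Muc13 are shown because Wnt signals reach genes through Tcf/Lef factors, whose sites share the core CTTTG. The sequences are from RefSeq (GRCm38.p6), 250 bases before to 50 after the start, with CTTTG or its reverse complement CAAAG in capitals. The Vldlr window is chr19:27216234-27216533 (plus strand) and the Muc13 window chr16:33793787-33794086 (plus strand).
Vldlr: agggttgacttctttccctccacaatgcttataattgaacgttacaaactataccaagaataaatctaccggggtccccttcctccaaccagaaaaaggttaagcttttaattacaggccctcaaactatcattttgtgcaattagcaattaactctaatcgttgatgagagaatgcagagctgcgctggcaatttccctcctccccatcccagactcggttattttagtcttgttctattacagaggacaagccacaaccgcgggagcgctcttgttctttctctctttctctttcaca
Muc13: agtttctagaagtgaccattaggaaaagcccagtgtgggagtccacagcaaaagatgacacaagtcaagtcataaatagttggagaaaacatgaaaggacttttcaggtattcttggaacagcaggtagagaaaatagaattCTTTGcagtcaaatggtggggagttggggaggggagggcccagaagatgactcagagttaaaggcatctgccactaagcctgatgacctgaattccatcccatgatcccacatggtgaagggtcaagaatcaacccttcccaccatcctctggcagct
The Muc13 window held 1 match on the forward strand and the Vldlr window none on either strand. Of 32851 windows of this length in the table, 53.9% held a match. A match describes letters and is not a binding site.

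Among stem cell genes outside the rule, Vldlr was the only one called. Of 32, 28 passed the filter on low counts, and 13 had positive (49.1% of all genes had) and 15 negative log2 fold changes. The median log2 fold change was -0.05, beside -0.00511 over all genes. Vwf stood at 15.2, 22.1 and 29.0 CPM against 11, 32.9, 26.7 and 23.6, with a log2 fold change of -0.04 (SE 0.31). Gata2, a transcription factor of stem cells, had 0.45 (SE 0.20), and Rarb, a retinoic acid receptor, -0.96 (SE 0.32), both with an edgeR adjusted p of 1.00.

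The rule's own markers are given as values only. Hlf stood at 497, 783 and 370 CPM against 687, 1183, 835 and 485, and Mecom at 1173, 2054 and 671 against 1511, 2695, 1960 and 843. Trpc6, a calcium channel, stood at 156, 414 and 199 against 496, 739, 378 and 259.9. The groups overlapped for each of them.

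No multipotent progenitor gene was called. Their summed level was 2300 to 2747 CPM in the knockout-labelled libraries and 1735 to 2000 in the WT-labelled ones, without overlap. This list is 1 of 24, and no other of them had a summed level without overlap. How often the sum of other sets of genes would part the labels was not determined. Taken singly, 1 member (Plac8) was higher without overlap, as were 0.781% of all genes tested. Of 12 members, all tested, 5 were higher at an unadjusted p below 0.05 and none lower, where 1.7% of all genes were higher and 1.74% lower. The median log2 fold change was 0.56, with 0.42 within list A, 0.63 with at least 5 markers and 0.49 in cells thinned to 3000 UMIs.

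Plac8, a small protein of myeloid progenitors, stood at 621, 404 and 636 CPM in the knockout-labelled libraries and at 252, 102, 307 and 346 in the WT-labelled ones. The groups did not overlap, as in 0.781% of all genes in that direction, and the fitted log2 difference came to 1.12 (SE 0.29, edgeR adjusted p 0.542). For Ccl9, a myeloid chemokine, the value was 0.97 (SE 0.27, edgeR adjusted p 0.726), and for Cdk6 0.65 (SE 0.22, 1.00). Cd34 and Cd48, surface markers of progenitors, had -0.03 (SE 0.21) and 0.45 (SE 0.29). In Flt3 progenitors Plac8 had a difference of 0.94 (edgeR adjusted p 0.0837), and Ccl9 was called there at 1.07 (0.0111).

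No marker of granulocytes and monocytes was called. The summed level of 14 markers was 528 to 877 CPM in the knockout-labelled libraries and 240.0 to 792 in the WT-labelled ones. Of the 14, 6 passed the filter, and all 6 had positive log2 fold changes, as had 49.1% of all genes tested. Mpo, myeloperoxidase, stood at 188, 160.1 and 110 CPM against 86.3, 59.6, 97.3 and 68.6, without overlap, as in 0.781% of all genes in that direction. Its log2 difference was 0.96 (SE 0.21, edgeR adjusted p 0.509).

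Prtn3, proteinase 3, stood at 256, 250.4 and 359 CPM against 73.5, 83.2, 97.3 and 328. It had a fitted difference of 1.09 (SE 0.26, edgeR adjusted p 0.542) and was called within list A alone (1.58, 0.0126), as was Ctsg (fitted 4.59, 0.00213). Ctsg was at 0 in WT replicate 2, and the late granule genes Ngp, Camp and Ltf were at 0 in knockout replicate 2 (Ltf also in WT replicate 3). In Flt3 progenitors Mpo (1.33, edgeR adjusted p 0.00888) and Prtn3 (1.56, 0.00273) were higher. The part of these markers in the level of the progenitor genes was not tested.

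Immediate early genes, which respond within minutes to signals and to handling, had mostly positive differences. Of 22, 19 passed the filter, 16 had positive log2 fold changes (49.1% of all genes had) and 6 were higher at an unadjusted p below 0.05 (1.7% of all genes were), with none called. The median was 0.42 over both lists and 0.90 within list A, and -0.02 in Flt3 progenitors. Egr1, an early growth response factor, stood at 456, 378 and 230 CPM against 134, 168, 185 and 218. The groups did not overlap, as in 0.781% of all genes in that direction, and the libraries of list B were close (230 and 218). The fitted log2 difference came to 0.96 (SE 0.25, edgeR adjusted p 0.542), with 1.36 within list A and 0.07 within list B. Atf3, a stress-induced transcription factor, was called within list A (2.68, edgeR adjusted p 0.00213). Within list B it stood at 2.52 CPM in the knockout-labelled library and 4.76 in the WT-labelled one.

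Megakaryocyte genes, the lineage of the series title, gave no call in the gate. Of 32, 22 passed the filter, 15 with positive (49.1% of all genes were) and 7 with negative log2 fold changes. The median log2 fold change was 0.12, and the summed level was 2412 to 3011 CPM against 2397 to 3152. Selp, P-selectin, stood at 29.4, 23.8 and 11 CPM against 9.18, 11, 13.4 and 5.00 (log2 difference 1.21, SE 0.33, edgeR adjusted p 0.719). Mmrn1, multimerin, went the other way, with 57.7, 78.3 and 58.3 CPM against 84.5, 144, 135 and 115. Its groups did not overlap, as in 0.577% of all genes in that direction, and the fitted log2 difference came to -0.90 (SE 0.22, edgeR adjusted p 0.542).

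Both genes were called outside the gate. Selp was higher in Flt3 progenitors (1.69, edgeR adjusted p 0.00888) and in cycling stem-marker cells (1.74, 0.0203), and Mmrn1 was lower in Flt3 progenitors (-1.45, 0.0135). Neither difference was shown to differ from that of the gate (gate minus progenitors -0.46, SE 0.38, for Selp and 0.53, SE 0.25, for Mmrn1, edgeR adjusted p 1.00). Itgb3, an integrin of platelets, was called higher in cycling stem-marker cells (1.66, edgeR adjusted p 0.0203) and had 0.68 (SE 0.36, 1.00) in the gate. Pf4, platelet factor 4, ranged from 1.70 CPM in knockout replicate 2 to 419 in knockout replicate 3. Of 24 genes known from aged and platelet-biased stem cells, 11 passed the filter, none was called, and the median was 0.26.

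No member of the Wnt lists was called. Of 45 pathway components, 27 passed the filter, 19 of them with negative and 8 with positive log2 fold changes, and the median was -0.13. Of all genes tested, 49.1% were positive. Ror2, a Wnt5a receptor, stood at 5.06, 11.9 and 8.69 CPM against 7.35, 32.9, 28.6 and 13.8 (log2 difference -1.10, SE 0.43, edgeR adjusted p 1.00), and Ryk, another Wnt receptor, had -0.56 (SE 0.24, 1.00). Of 22 target genes 6 passed, with a median of 0.03. Myc had 0.49 (SE 0.24) and Id2 -0.74 (SE 0.32), both with an edgeR adjusted p of 1.00, and Axin2 did not pass the filter.

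Genes of glycan synthesis gave no call either. Of 7 beta-1,4-galactosyltransferases 4 passed, with a median of -0.18, and of 17 sialyltransferases 10 passed, with a median of 0.01. St3gal1, which adds sialic acid to galactose, stood at 117, 128 and 141 CPM against 156, 246, 212 and 169. The groups did not overlap, as in 0.577% of all genes in that direction, and the fitted log2 difference came to -0.58 (SE 0.22, edgeR adjusted p 1.00). Of 10 mucins and sialomucins 7 passed, with a median of 0.02, and Selplg, the P-selectin ligand, had 0.40 (SE 0.22, 1.00).

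Cell cycle and other lists gave no call. Of 16 S phase genes that passed, 14 were positive (49.1% of all genes were), the median was 0.17, within list A it was -0.00321, and none was called. Of 19 G1 regulators the median was -0.00477, with Foxo3, a factor that keeps stem cells quiescent, at -0.44 (SE 0.20). Medians were -0.02 over 20 interferon response genes, -0.13 over 7 Hox genes, -0.13 over 10 imprinted genes and -0.09 over 16 adhesion and niche receptors, all without a call.

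Markers of several other cell types were scarce. Summed levels in the 7 libraries were at most 10.5 CPM for 6 endothelial markers, 11 for 4 stromal markers, 18.4 for 6 mast cell and basophil markers and 155 for 14 lymphoid markers, and no mast cell, endothelial or stromal marker passed the filter. The 4 dendritic markers summed to 95.2 to 162 CPM in the knockout-labelled and 26.7 to 315 in the WT-labelled libraries, with Cd74, the invariant chain, at 207 in WT replicate 4, and their median log2 fold change was -0.08, and 0.69 within list A. Erythroid markers, with the globins among them, ranged from 528 to 2012 CPM, and Hbb-bt, a beta globin, stood at 112, 64.7 and 100.4 against 18.4, 9.41, 45.8 and 68.4 (log2 difference 1.31, SE 0.37, edgeR adjusted p 0.830).

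Finally, the label difference in the gate was set against that in Flt3 progenitors of the same libraries (edgeR, interaction of cell group and label with the library as a block). Of 10324 genes tested 11 were called, or 0.107%, 5 with a larger (0.0484%) and 6 with a smaller difference (0.0581%) in the gate. Within Flt3 progenitors alone, 53 of 10213 genes (0.519%) were called between the labels, 31 higher (0.304%) and 22 lower (0.215%), against 2 of 8838 in the gate. The counts come from different numbers of cells and were not compared by a test. Against cycling stem-marker cells 3 of 10066 genes were called (0.0298%), Ccl5 with a larger (0.00993%) and Pf4 and Dmac2l with a smaller difference in the gate (0.0199%).

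Meg3, an imprinted long noncoding RNA, was called between the labels in Flt3 progenitors and not in the gate. In gated cells it stood at 67.5, 92.0 and 32.5 CPM in the knockout-labelled libraries and 47.7, 69.3, 38.4 and 66.6 in the WT-labelled ones. In Flt3 progenitors it stood at 29.4, 37.1 and 6.45 against 0, 10.2, 6.07 and 2.98. The label difference was -0.02 in the gate (edgeR adjusted p 1.00) and 2.00 in the progenitors (0.0455), a difference between them of -2.07 (SE 0.34, edgeR adjusted p 0.000406). This call was lost without knockout replicate 3 (edgeR adjusted p 0.0620), without WT replicate 4 (0.0738) and within list A (0.0815).

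Dusp2 encodes a phosphatase that switches off MAP kinases. Gated cells stood at 219.5, 254 and 63.8 CPM against 121, 134, 119 and 56.8, and Flt3 progenitors at 198, 224 and 56.6 against 212, 201.5, 251 and 72.5. The label difference was 0.69 in the gate (edgeR adjusted p 0.805) and -0.17 in the progenitors (0.982), neither called. The gate exceeded the progenitors in it by 0.81 (SE 0.15, edgeR adjusted p 0.00232), a call lost without WT replicate 3 (0.0614). Within list A the excess was 1.00 (edgeR adjusted p 0.00905). In list B the gated cells stood at 63.8 and 56.8 CPM.

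Il1rapl2 and Sema3d also entered with a larger value in the gate. Il1rapl2, a member of the interleukin 1 receptor family, stood at 8.06, 211 and 48.2 CPM against 128, 263, 105.5 and 106.5 in gated cells and at 0.525, 21.0 and 6.13 against 22.7, 77.3, 61.5 and 35.8 in Flt3 progenitors. Its label difference was -0.85 in the gate and -2.69 in the progenitors, neither called on its own (edgeR adjusted p 1.00 and 0.586), and the excess was called (1.56, SE 0.27, edgeR adjusted p 0.00232). That call was lost without knockout replicate 2 (edgeR adjusted p 0.182), without WT replicate 4 (0.0583) and within list A (0.0770). Sema3d, a secreted semaphorin, stood at 41.3, 6.81 and 2.89 CPM against 16.5, 14.2, 11.5 and 2.57 in gated cells and at 58.3, 26.0 and 13.6 against 55.4, 95.6, 103 and 41.3 in the progenitors. The excess was 1.84 (SE 0.36, edgeR adjusted p 0.00826), and it was lost without knockout replicate 1 (1.00), whose gated cells had the highest level. It was also lost without WT replicate 3 (edgeR adjusted p 0.100), without WT replicate 4 (0.0504), within list A (0.0667) and without the term for cell group and list (0.251).

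The remaining gene of the 5 with the smallest p, Fam155a, rests on few molecules. Gated cells held 6, 14 and 0 UMIs against 0, 0, 0 and 1, and Flt3 progenitors 1, 0 and 0 against 0, 65, 10 and 16. Its fitted difference depends on the prior count and says nothing about size.

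**Figure D5:**
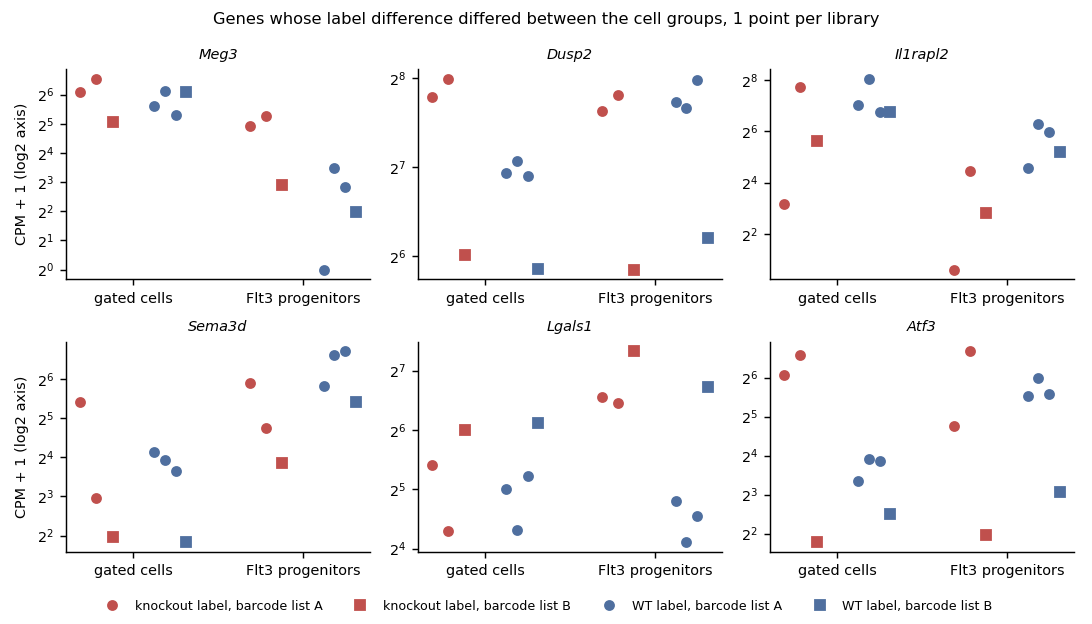
CPM + 1 (log2 axis) in gated cells and Flt3 progenitors of each library for 6 of the 11 genes called; red is the knockout label, blue the WT label, circles list A and squares list B. Meg3 and Lgals1 part the labels in Flt3 progenitors within each list and overlap in the gate, while Dusp2 and Atf3 part them among the circles of the gate.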

How the data were processed

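UMI counts per gene and barcode of 7 LSK libraries were used as the authors deposited them, in matrices whose headers name Cell Ranger 7.0.0; the submitters' processing notes also name Seurat 4.4.0 and build mm10. Whether intronic reads were counted is not given in the sources used here. Barcodes with at least 1000 UMIs, 500 genes and at most 10% mitochondrial UMIs were kept. No doublet caller was run, and an alternative dropped the 43 gated cells over 2 times their library's median UMIs. Barcode lists were read from the first 6 bases of the barcodes. Counts of gated cells were summed per library and compared with edgeR 4.0.16 in R 4.3.3 (TMM, filterByExpr, robust quasi-likelihood F test, two-sided, barcode list as covariate), with DESeq2 1.42.0 as an alternative. Shares were compared by two-sided exact permutation tests over 35 splits (scipy 1.17.1). The edgeR fits were also tested on simulated data. The design called for the gate genes (15), B4galt1 and Muc13, up to 10 called genes in each direction with a mean CPM of at least 10, called members or else the 2 with the smallest p of each list, the 10 largest and smallest differences from Flt3 progenitors, and the 5 interaction genes with the smallest p; other genes were named after their values had been seen. The gate, the 24 gene lists, the covariate and the tests were chosen with earlier results of these data known. Gene positions are those of the mm10 annotation. Some genes that the rule named are not reported here.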

Additional observations from a re-analysis of the deposited data

Results flagged for a closer look

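The label difference (knockout minus WT, log2) differed between gated cells and Flt3 progenitors by edgeR's interaction test for 11 genes, and each value here is the gate's difference minus that of the progenitors. Where it is positive, the gate had the larger value: Fam155a 11.90 (fitted against libraries at 0, so without meaning as a size), Atf3 2.09, Sema3d 1.84, Il1rapl2 1.56 and Dusp2 0.81. Where it is negative, the progenitors had the larger value: Phldb2 -2.11, Meg3 -2.07, Lgals1 -1.03, Ap3s1 -0.99, Serpina3g -0.75 and Dach1 -0.60.

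Lgals1, galectin 1, which binds galactose-bearing sugar chains, stood in gated cells at 41.3, 18.7 and 62.7 CPM in the knockout-labelled libraries and at 31.2, 18.9, 36.5 and 68.5 in the WT-labelled ones, and in Flt3 progenitors at 92.9, 86.6 and 160 against 27.0, 16.3, 22.5 and 105. It was called between the labels in the progenitors (1.35, edgeR adjusted p 0.0117) and not in the gate (0.03, 1.00). Ap3s1, an adaptor protein of vesicle transport, was called in the progenitors as well (1.10, edgeR adjusted p 0.00674), with 0.06 in the gate. Serpina3g, a serpin, had 1.18 there (edgeR adjusted p 0.0189) and 0.44 in the gate (1.00).

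Leaving out 1 library ended the call of 10 of the 11 genes at least once. Dusp2 and Lgals1 were lost only without WT replicate 3 (edgeR adjusted p 0.0614 and 0.0864), and Meg3 without knockout replicate 3 or WT replicate 4, with an adjusted p of at most 0.0738. Fam155a could be fitted in 5 of the 7 such fits and stayed called in these.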

How the results depend on the processing

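The count of 2 genes called within the gate was 0 without the covariate and with at least 5 markers, 0 for DESeq2 without the covariate (chosen after seeing the data), 4 in list A alone (Atf3, Ctsg, Vldlr and Prtn3, all higher), 28 without the gene filter, 1 at a mitochondrial limit of 5%, 1 without cells over 2 times the median UMIs, 1 after thinning to 3000 UMIs and 4 with equal numbers of cells; leaving out 1 library each gave 1 to 4. With the replicate number as a block in place of the covariate it was 15. Deviations of same-numbered libraries from their group means had r 0.32, 0.71 and -0.41 for numbers 1 to 3, so the numbers were not taken as a pairing; with the barcode list removed r was 0.15, 0.31 and 0.16, and up to 0.31 between libraries of different numbers. Vldlr and Ccl27a were not called with the replicate block (edgeR adjusted p 0.133 and 0.316). The 11 interaction genes became 26 without the gene filter and 3 against cycling stem-marker cells (Pf4 -2.40, Ccl5 5.83 and Dmac2l -1.20, with Pf4 from 1.56 to 4547 CPM in those cells, and Ccl5 at 0 in 4 of the 7 libraries there, so that its fitted value depends on the prior count); leaving out 1 library each gave 5 to 17. The difference in gated share (-0.57 points) was 0.79 with at least 3 markers and 0.35 at a mitochondrial limit of 5%, and -1.95 to 0.73 leaving out 1 library each, with 0.73 without knockout replicate 1 and 0.21 without WT replicate 2. The share without Mki67 and Top2a differed by -2.65 to 5.75 points leaving out 1 library each, with -0.42 without WT replicate 1 and -2.65 without WT replicate 3. The cause of these changes was not tested. The shares with at least 4 markers and, among those, without Flt3 and Dntt kept their direction in all 13 alternatives each (-22.7 to -8.33 and 10.7 to 15.9 points), though the first overlapped between the labels with at least 3 markers. Muc13 and B4galt1 kept direction and were not called in all 19.

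The gate of WT replicate 3 held 77 cells and 508439 UMIs, the fewest UMIs of any library, and genes under the filter on low counts, Hoxb5 among them, were not tested.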

Other observations

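Hoxa9, a homeobox factor of stem and progenitor cells, was called lower under the knockout label in Flt3 progenitors (-0.78, edgeR adjusted p 0.0489) and had -0.19 in the gate (1.00); the gate minus progenitor difference of 0.52 was not called (edgeR adjusted p 0.235).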
